A study of Mus musculus with 42 samples.

Results

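The 8 genes described here encode the ligand NODAL, its antagonists LEFTY1 and LEFTY2, the co-receptor CRIPTO (Tdgf1), the type I receptor TGFBR1, the signal carriers SMAD2 and SMAD3, and the SMAD co-repressor SKI-like (Skil). They were taken by gene symbol, all 8 were found, and they are 8 of the 22186 genes in the expression table. Expression was measured by poly(A) RNA-seq in 42 libraries of cultured mouse cells, 3 libraries in each of 14 groups, in cells exposed to the endocrine disrupting chemical bisphenol S (BPS) or to ethanol vehicle alone. Induced pluripotent stem cells (iPSCs) were all of 1 male line, reprogrammed from embryonic fibroblasts of a lone fetus with a doxycycline-inducible factor cassette and kept under naive conditions. In the dose series, iPSCs received ethanol vehicle or BPS at 1, 50 or 100 µM. In the propagation experiment, iPSCs received 1 µM BPS or ethanol vehicle, and primordial germ cell-like cells (PGCLCs) were then derived from each culture without further exposure ("derived PGCLCs"). In another experiment PGCLCs made from unexposed iPSCs were themselves given 1 µM BPS or vehicle ("directly exposed PGCLCs"). PGCLCs pass through epiblast-like cells for 2 days and aggregates for 4 days, and were sorted on surface FUT4 and ITGB3. Primary Sertoli cells of the testis and granulosa cells of the ovary, each pooled from about 5 littermates at postnatal day 20 and split over flasks, received 1 µM BPS or vehicle. Exposure lasted 24 h and was followed by 24 h without BPS, or by 8 h in directly exposed PGCLCs. Libraries of a group came from parallel cultures of the same line or cell pool, so the p-values below measure the spread between cultures and not between animals.

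NODAL is a secreted ligand of the TGF-beta family that signals in the early embryo and in pluripotent cells through type I and type II activin receptors with CRIPTO as co-receptor. The receptors phosphorylate SMAD2 and SMAD3, which enter the nucleus with SMAD4 and act with partners such as FOXH1. LEFTY1 and LEFTY2 bind NODAL or CRIPTO and block signaling, and because Lefty1, Lefty2 and Nodal are themselves targets of the pathway, the LEFTY genes form a negative feedback loop. TGFBR1 is best known as a receptor for TGF-beta ligands rather than for NODAL, and SKIL binds SMAD proteins on DNA and holds their targets down.

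Lefty1 and Lefty2 are neighbouring copies, and this limits how well short reads tell them apart. In the GRCm38/mm10 build (GENCODE vM21) Lefty2 lies at chr1:180893108-180899103 and Lefty1 at chr1:180935022-180938400, both on the plus strand and 35918 bases apart. Their coding sequences are 1104 bases each and align without a gap, with 1014 identical and 90 different bases (91.8% identity) and a longest identical run of 140 bases. Of all 50-base words in the coding sequence, 26.6% occur in both genes, and over the whole exonic sequence the share is 17.9% for Lefty1. How reads that fit both copies were handled is not given in the sources used here, so a read from such a stretch could count for either copy. The 100-base coding window below is the one inside an exon with the most differences, 30 bases, and shows where reads do separate the copies. Lower case letters are shared and capitals mark the bases that differ, at chr1:180935148-180935247 in Lefty1 and chr1:180893222-180893321 in Lefty2, both on the plus strand.
Lefty1: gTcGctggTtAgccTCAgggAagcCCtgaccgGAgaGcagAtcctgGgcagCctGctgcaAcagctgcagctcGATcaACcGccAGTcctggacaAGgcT
Lefty2: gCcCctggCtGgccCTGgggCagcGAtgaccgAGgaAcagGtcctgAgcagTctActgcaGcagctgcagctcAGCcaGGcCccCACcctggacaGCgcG

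The other members lie apart from each other. Nodal is at chr10:61417972-61425338 (plus strand), Tdgf1 at chr9:110939603-110946158 (minus), Tgfbr1 at chr4:47353222-47414931 (plus), Smad3 at chr9:63646767-63757994 (minus) and Skil at chr3:31095058-31122577 (plus). No member overlaps another annotated gene. Tdgf1 shares 8.86% of its exonic 50-base words with a pseudogene, Tdgf1-ps1, so its counts carry the same uncertainty, while Tgfbr1 shares 1 such word with another gene and Nodal, Smad2, Smad3 and Skil share none.

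BPS can act on estrogen receptors, whose DNA element is GGTCANNNTGACC, and the promoters of 2 members called below are shown for this reason. By immunostaining the paper found estrogen receptor beta but not alpha in iPSCs, and neither in PGCLCs. The part of either receptor in the changes below was not tested. Over the 250 bases before each gene start in RefSeq (GRCm38.p6), the full element was found in 0.0639% of 32851 promoters, its arm GGTCA on either strand in 35.2%, and AATCCACA, the site of the SMAD partner FOXH1, in 0.718%. RefSeq gives 2 start sites for Tgfbr1. The promoter of the first (chr4:47352972-47353221, plus strand) is shown and holds 1 GGTCA, in capitals, and that of the second (chr4:47385966-47386215, not shown) also holds 1. The promoter of Tdgf1 (chr9:110946159-110946408, minus strand) holds none of the 3 motifs. The Nodal and Smad3 promoters hold none of the 3 either, and those of Lefty1, Lefty2, Smad2 and Skil were not analysed here. A match describes the letters in this window only, and GGTCA is common among all promoters.
Tgfbr1: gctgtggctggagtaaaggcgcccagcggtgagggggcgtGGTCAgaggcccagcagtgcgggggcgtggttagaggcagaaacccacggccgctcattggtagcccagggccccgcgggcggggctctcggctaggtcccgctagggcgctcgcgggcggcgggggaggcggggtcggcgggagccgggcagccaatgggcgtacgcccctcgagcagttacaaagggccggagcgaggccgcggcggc
Tdgf1: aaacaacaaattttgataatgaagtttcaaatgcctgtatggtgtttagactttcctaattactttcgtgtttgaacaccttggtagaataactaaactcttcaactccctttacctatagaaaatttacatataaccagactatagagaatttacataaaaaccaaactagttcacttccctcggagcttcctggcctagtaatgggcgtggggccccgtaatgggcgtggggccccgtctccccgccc

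Values are CPM, the reads of a gene scaled to a fixed library total with the trimmed mean of M-values, and differences are log2 changes, first-named group minus second, from limma on the deposited log2 values. A gene is called where its Benjamini-Hochberg adjusted p over all genes of the fit is 0.05 or less. Reads recovered from the deposited values, summed over the 22186 genes, numbered 26693847 to 44524376 per library (median 31125212). The replicate 2 library of BPS propagation iPSCs stood farthest from its group, at 2.05 times the median distance of a library from its replicates, and values without it are given where it matters. Marker genes fitted the labels of the iPSCs, with the 7 naive pluripotency genes summing to 4827 to 4991 CPM in the dose series. In vehicle cultures the 7 germ cell genes summed to 387 to 407 CPM in dose-series iPSCs and 350 to 363 CPM in direct-experiment PGCLCs. They summed to 416 to 425 CPM in vehicle propagation iPSCs and 469 to 656 CPM in derived vehicle PGCLCs. This list thus did not set PGCLCs of the direct experiment above iPSCs. Vehicle Sertoli libraries averaged 336 CPM of Sox9 and 377 CPM of Wt1 but 0.382 CPM of Rhox5, and vehicle granulosa libraries averaged 140 CPM of Foxl2 but 0.451 CPM of Fshr. Both somatic cultures also held much of the 7 fibroblast genes tested, 1002 to 1262 CPM in the 6 Sertoli and 4576 to 5340 CPM in the 6 granulosa libraries. In bulk libraries, fewer cells of a type and less RNA per cell cannot be told apart.

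The ligand, the antagonists and the co-receptor were genes of the iPSCs and PGCLCs. Over the 30 iPSC and PGCLC libraries Nodal was read at 69.9 to 110.5 CPM (median 89.8), Lefty1 at 8.76 to 73.9 CPM (median 38.2), Lefty2 at 109 to 469 CPM (median 244) and Tdgf1 at 218 to 452 CPM (median 393). In the 12 Sertoli and granulosa libraries together Nodal had 7 reads, with 7 libraries at 0, and Lefty2 had 12 reads, with 4 libraries at 0. The 3 vehicle granulosa libraries had 0 Nodal reads, which allows up to 0.0313 CPM over the group (3 reads). Tdgf1 had 1 read in the 3 vehicle Sertoli libraries and 38 in the 3 vehicle granulosa libraries, at most 0.442 CPM in any of them. Lefty1 was the member of this set with the most even somatic trace, 0.341 to 0.816 CPM and 10 to 27 reads in each library. Counting error alone is large at such numbers, and part of the Lefty1 exonic sequence is not unique.

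The receptor, the SMADs and Skil were read in every cell type. Tgfbr1 ran at 132 to 147 CPM in the 12 somatic libraries and at 30.0 to 66.4 CPM in the 30 iPSC and PGCLC libraries, without overlap. Smad2, at chr18:76241580-76310963 (plus strand), was the most even member, with group means between 65.7 and 91.2 CPM, a ratio of 1.39. Smad3 group means ranged 4.65-fold, with the highest in Sertoli cells, and Skil group means ranged 5.15-fold. Per kilobase of exon in vehicle dose-series iPSCs the CPM level of Tdgf1 was 151, that of Lefty2 64.7 and that of Nodal 39.4, against 10.1 for Lefty1, 9.04 for Smad2, 8.11 for Tgfbr1, 5.99 for Smad3 and 3.11 for Skil. Lefty2 thus stood above Lefty1 on this scale, and Lefty1 gave 7.67% to 18.7% of the summed Lefty CPM across the 10 iPSC and PGCLC group means.

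**Figure D1:**
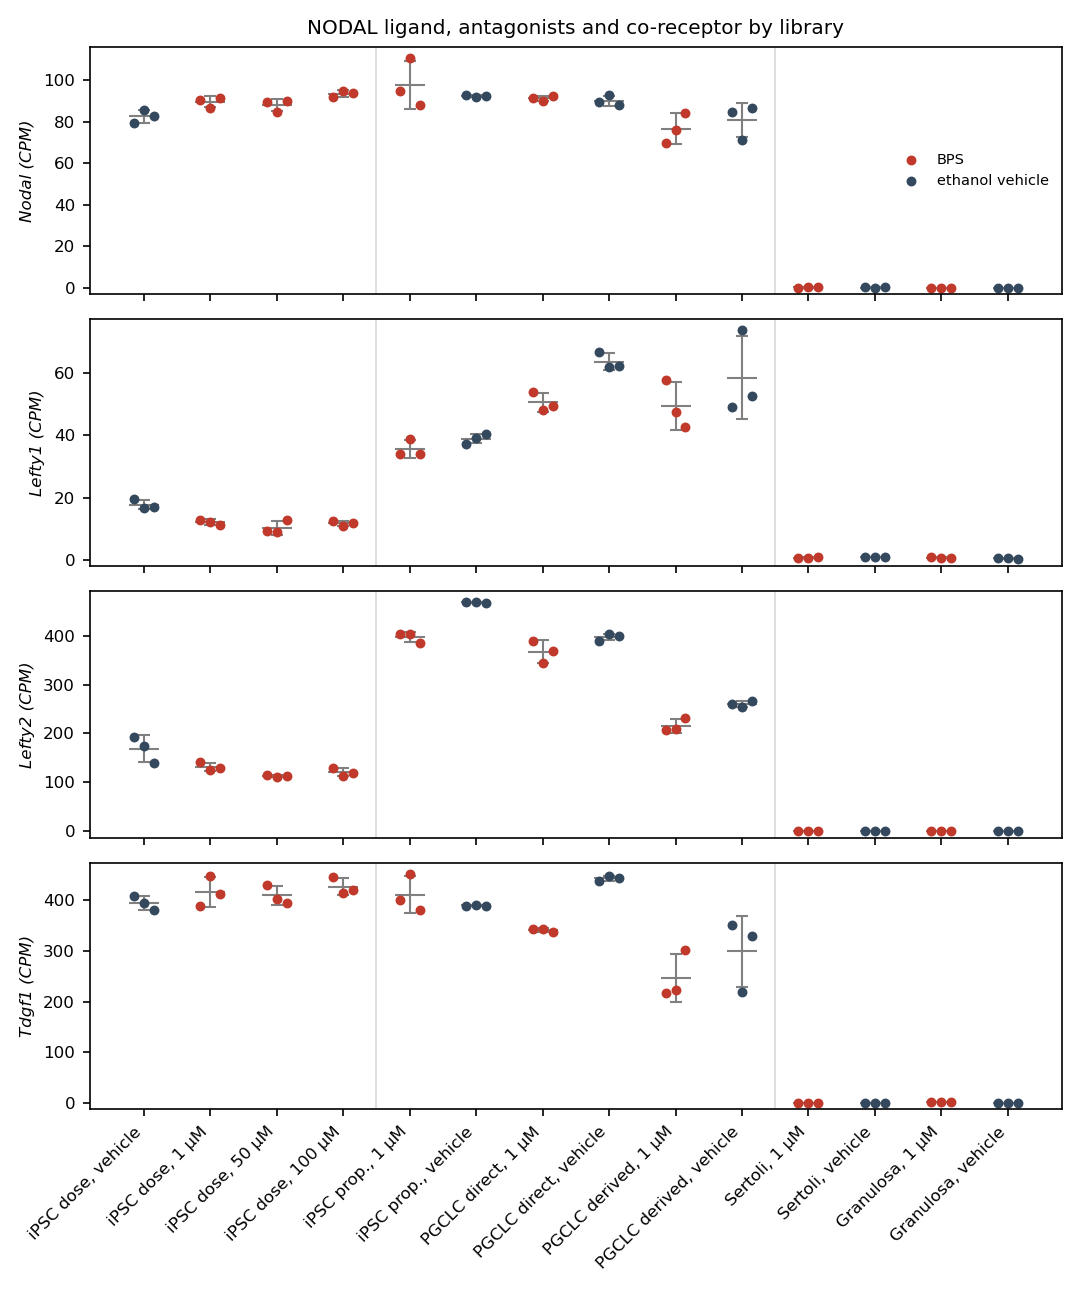
CPM of Nodal, Lefty1, Lefty2 and Tdgf1 (vertical axes, linear) in each of the 42 libraries by group, BPS in red and ethanol vehicle in blue, with bars for the mean and SD of 3 libraries. All 4 genes sit at or close to 0 in Sertoli and granulosa libraries, Lefty1 and Lefty2 are lower in the BPS than in the vehicle dose-series iPSCs, and Tdgf1 differs most between BPS and vehicle in directly exposed PGCLCs.

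The dose series asked whether iPSCs respond to BPS and whether the response grows with dose. Both antagonists were called lower at every dose, Tgfbr1 lower at 50 and 100 µM, and Nodal higher at 100 µM. Tdgf1, Smad2, Smad3 and Skil were not called at any dose. Lefty1 had 19.4, 16.7 and 17.1 CPM in vehicle libraries, 12.8, 12.2 and 11.1 CPM at 1 µM, 9.11, 8.76 and 12.7 CPM at 50 µM and 12.3, 10.9 and 11.7 CPM at 100 µM. Every BPS library lay below every vehicle library, and each value rests on 262 to 544 reads. The log2 change of Lefty1 was -0.56 ± 0.11 (SE, limma adjusted p = 0.00397) at 1 µM, -0.82 ± 0.11 (adjusted p = 3.84e-05) at 50 µM and -0.61 ± 0.11 (adjusted p = 0.000511) at 100 µM.

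Lefty2, the more abundant antagonist, had 193, 174 and 140 CPM in vehicle libraries, 141, 125 and 129 CPM at 1 µM, 115, 110 and 112 CPM at 50 µM and 129, 113 and 119 CPM at 100 µM. The vehicle libraries were spread, and the lowest of them fell just under the highest 1 µM library. At 50 and 100 µM all libraries lay below the vehicle libraries. Its log2 change was -0.35 ± 0.08 (limma adjusted p = 0.0119) at 1 µM, -0.58 ± 0.08 (adjusted p = 6.51e-05) at 50 µM and -0.48 ± 0.08 (adjusted p = 0.000297) at 100 µM. The 1 µM call was lost without vehicle replicate 1 (adjusted p = 0.0968) or vehicle replicate 2 (adjusted p = 0.0635), and in a fit of the 6 libraries alone (adjusted p = 0.0694).

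Nodal had 79.4, 85.7 and 82.5 CPM in vehicle libraries, 90.7, 86.6 and 91.4 CPM at 1 µM, 89.4, 84.5 and 90.0 CPM at 50 µM and 91.8, 94.95 and 93.8 CPM at 100 µM. Libraries at 1 and 100 µM lay above the vehicle libraries and those at 50 µM overlapped them. The change at 100 µM was +0.18 ± 0.05 (limma adjusted p = 0.00816), and without vehicle replicate 1 the adjusted p was 0.0551. At 1 µM the change of +0.12 was not called (adjusted p = 0.135). The co-receptor gene Tdgf1 had means of 395, 417, 410 and 427 CPM from vehicle up to 100 µM, with an adjusted p of 0.136 at 100 µM.

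Tgfbr1 had 53.4, 52.7 and 52.8 CPM in vehicle libraries, 48.8, 47.2 and 45.2 CPM at 1 µM, 39.0, 46.9 and 37.1 CPM at 50 µM and 44.2, 42.5 and 42.2 CPM at 100 µM. The vehicle libraries were the tightest of the 4 groups and every BPS library lay below them. The log2 change was -0.17 ± 0.07 (limma adjusted p = 0.120, not called) at 1 µM, -0.38 ± 0.07 (adjusted p = 0.000505) at 50 µM and -0.30 ± 0.07 (adjusted p = 0.00253) at 100 µM. Smad3 averaged 33.2 CPM in vehicle and 28.6, 28.8 and 28.7 CPM at 1, 50 and 100 µM, and none of these differences was called in the 12-library fit. Fitted on the 6 libraries compared, Smad3 was called lower at 50 µM (adjusted p = 0.0127) and at 100 µM (adjusted p = 0.00429), and Tdgf1 higher at 100 µM (adjusted p = 0.0251). Smad2 means stayed between 73.6 and 79.4 CPM and Skil means between 30.2 and 33.2 CPM.

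At 1 µM, 2 of the 8 members were called lower and 0 higher, where 2.94% of the 16349 genes tested were called lower and 5.61% higher. At 50 µM, 3 members were called lower and 0 higher, against 13.3% and 13.1% of all genes, and at 100 µM 3 were called lower and 1 higher, against 15.4% and 15.3%. The members' median log2 change was -0.10 at 1 µM, -0.16 at 50 µM and -0.14 at 100 µM, and that of all genes tested was -0.01 at 1 µM and nearer to 0 at the other doses. All 3 comparisons share the same 3 vehicle libraries. Setting 100 µM directly against 1 µM called 0 members with limma or limma-voom, and 0.44% of all genes, and no member had an unadjusted p under 0.05. The 95% interval of that difference was -0.28 to 0.18 for Lefty1, -0.30 to 0.04 for Lefty2 and -0.27 to 0.01 for Tgfbr1. Differences between doses within these intervals were not detectable with 3 libraries each.

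Other genes of the pathway moved both ways in the dose series. Of 31 other pathway genes tested, 3 were called higher and 4 lower at 1 µM, 7 and 9 at 50 µM, and 10 and 7 at 100 µM. Fst, the activin-binding inhibitor follistatin, averaged 44.5 CPM in vehicle and 57.1, 60.501 and 56.6 CPM at 1, 50 and 100 µM, and was called higher at each dose (adjusted p = 0.00149 at 1 µM). Tgfbr2, the type II receptor that pairs with TGFBR1, averaged 2.49 CPM in vehicle and 4.85, 6.89 and 7.45 CPM with dose, also called higher at each dose (adjusted p = 0.00608 at 1 µM). Foxh1, the DNA-binding partner of SMAD2, averaged 75.8 CPM in vehicle, 65.1 CPM at 1 µM and 58.6 CPM at 100 µM, with a log2 change of -0.37 at 100 µM (adjusted p = 4.07e-05).

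Markers of cell identity gave a mixed picture beside these changes. Of 7 naive pluripotency genes, 0 were called at 1 or 50 µM, and their summed level was 4875 to 4924 CPM at 1 µM, against 4827 to 4937 CPM in vehicle libraries. Of 7 germ cell genes, Prdm1, Tfap2c and Dppa3 were called lower at 1 µM, and the list summed to 323 to 370 CPM at 1 µM, against 387 to 407 CPM in vehicle libraries. At 50 and at 100 µM 4 of the 7 germ cell genes were called lower. Of 4 mesendoderm genes tested, T (brachyury) was called higher at every dose, and the list summed to 45.4 to 51.6 CPM in vehicle libraries, 51.3 to 64.4 CPM at 1 µM, 63.9 to 69.2 CPM at 50 µM and 53.3 to 58.8 CPM at 100 µM. Of 4 primed epiblast genes tested, the DNA methyltransferase gene Dnmt3b was called lower at every dose and the transcription factor gene Otx2 higher at 100 µM. The part of these shifts in the changes of Lefty1 and Lefty2 was not tested. The 7 fibroblast genes summed to at most 8.25 CPM in any dose-series library.

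**Figure D2:**
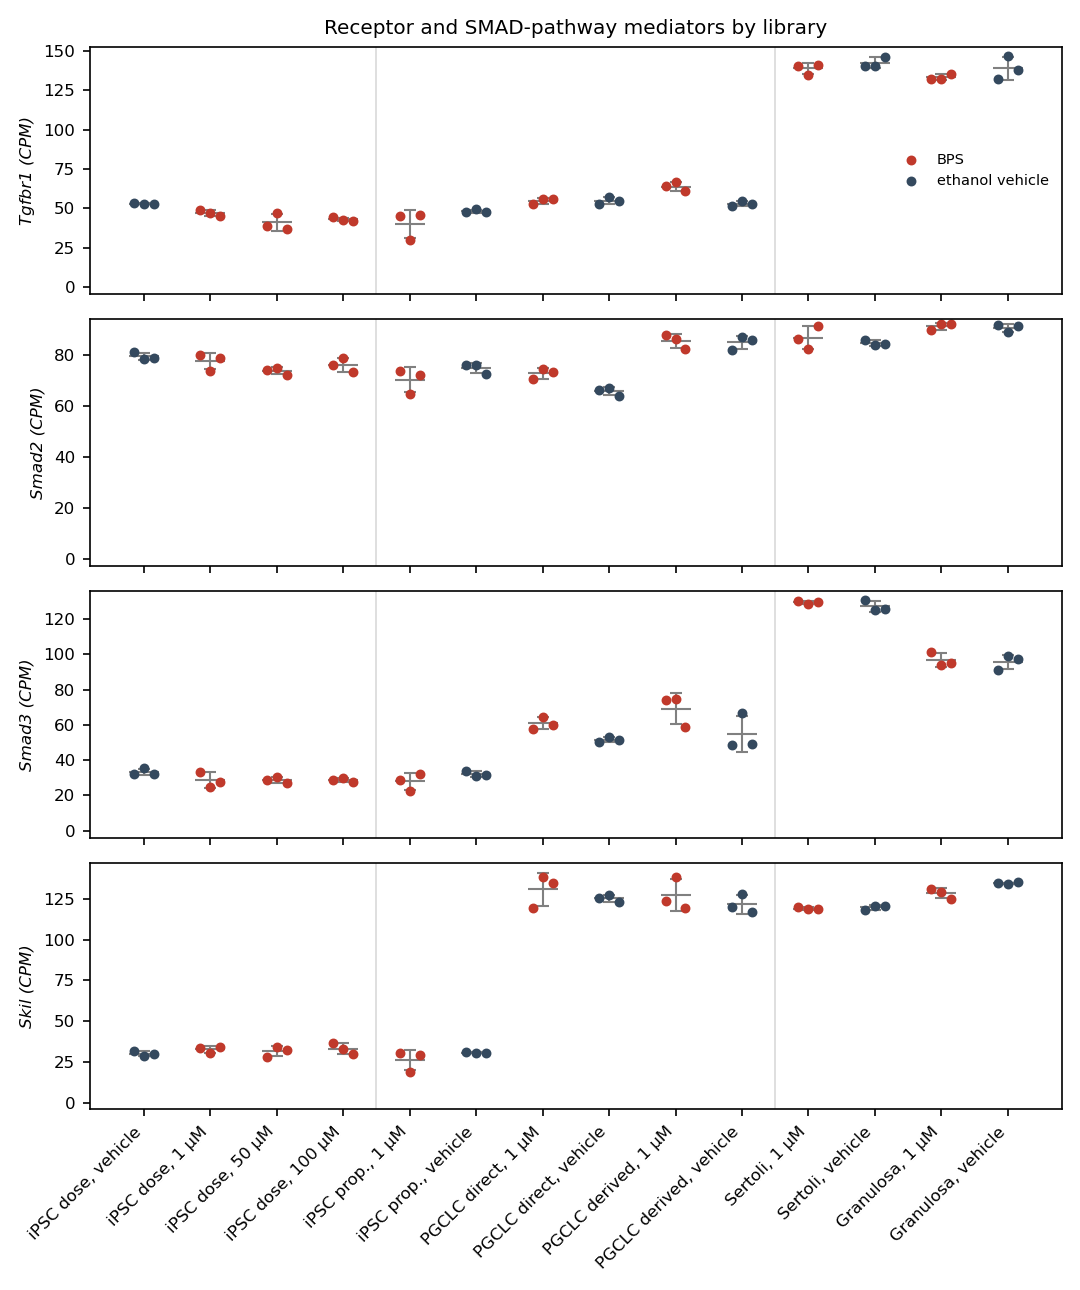
CPM of Tgfbr1, Smad2, Smad3 and Skil (vertical axes, linear) in each of the 42 libraries by group, BPS in red and ethanol vehicle in blue, with bars for the mean and SD of 3 libraries. Skil is near 30 CPM in the 6 iPSC groups except for a BPS propagation library at 18.95 CPM, and lies between 117 and 138 CPM in every PGCLC, Sertoli and granulosa library.

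In directly exposed PGCLCs 5 of the 8 members were called. The co-receptor gene and both antagonists fell and both SMAD genes rose. Tdgf1 had 344, 343 and 338 CPM in BPS libraries, against 439, 448 and 444 CPM in vehicle libraries. The libraries of each group were within 10 CPM of each other and the groups lay far apart, 23.0% lower on the mean with BPS. The log2 change was -0.38 ± 0.03 (limma adjusted p = 1.99e-07).

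Lefty1 had 54.1, 48.3 and 49.6 CPM in BPS PGCLCs, against 66.97, 61.9 and 62.4 CPM in vehicle PGCLCs, without overlap (log2 change -0.33 ± 0.05, limma adjusted p = 0.000128). Lefty2 had 390, 344 and 369 CPM in BPS PGCLCs, against 391, 403 and 401 CPM in vehicle PGCLCs. The highest BPS library lay less than 1 CPM below the lowest vehicle library. The change of -0.12 ± 0.04 was called at an adjusted p of 0.0345, but the call was lost on leaving out any library except BPS replicate 1, with adjusted p values up to 0.165. Lefty1 made up 12.1% ± 0.24 of the summed Lefty CPM in BPS PGCLCs and 13.8% ± 0.72 in vehicle PGCLCs (SD, n = 3 each).

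Smad3 had 57.7, 64.5 and 60.2 CPM in BPS PGCLCs, against 50.5, 53.2 and 51.3 CPM in vehicle PGCLCs (log2 change +0.24 ± 0.04, limma adjusted p = 0.00122). Smad2 had 70.3, 74.5 and 73.2 CPM in BPS PGCLCs, against 66.3, 66.9 and 63.99 CPM in vehicle PGCLCs (log2 change +0.14 ± 0.04, adjusted p = 0.0101). Both SMAD genes were higher in every BPS library than in any vehicle library, and the Smad2 call was lost without vehicle replicate 3 (adjusted p = 0.0606). Nodal averaged 91.4 CPM with BPS and 90.1 CPM with vehicle, with a 95% interval of the log2 change of -0.05 to 0.09. Tgfbr1 averaged 54.7 CPM with BPS and 54.8 CPM with vehicle (interval -0.09 to 0.09), and Skil 131 CPM and 125 CPM (interval -0.04 to 0.16), and neither was called.

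Thus 2 members were called higher and 3 lower, where 15.4% of 16342 genes were called higher and 11.3% lower. The members' median log2 change was 0.01, and that of all genes 0.02. Of 33 other pathway genes tested, 8 were called higher and 5 lower. Mixl1, a mesendoderm gene induced by NODAL, had 17.3 CPM with BPS and 6.48 CPM with vehicle, the largest shift of those named (log2 change +1.42 ± 0.09, limma adjusted p = 3.53e-08). Tgfb1, a ligand, averaged 99.1 CPM with BPS and 71.9 CPM with vehicle (adjusted p = 2.54e-06). Pcsk6, a convertase that cleaves the NODAL precursor, averaged 73.7 CPM with BPS and 91.3 CPM with vehicle (adjusted p = 3.45e-05). Gdf3, a related ligand, averaged 66.2 CPM with BPS and 81.5 CPM with vehicle (adjusted p = 0.000361).

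Markers of other cell states moved with the members in these PGCLCs. All 7 naive pluripotency genes were called lower, and summed to 2205 to 2463 CPM in BPS libraries, against 2832 to 2908 CPM in vehicle libraries. Of 7 germ cell genes 4 were called lower, with sums of 291 to 329 CPM against 350 to 363 CPM with vehicle. Of 6 mesendoderm genes 4 were called higher, with sums of 211 to 253 CPM against 174 to 191 CPM, and of 5 fibroblast genes tested 2 were called higher, with sums of 110 to 122 CPM against 93.1 to 98.8 CPM. The part of these marker shifts in the changes of Tdgf1, Lefty1, Lefty2, Smad2 and Smad3 was not tested.

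**Figure D3:**
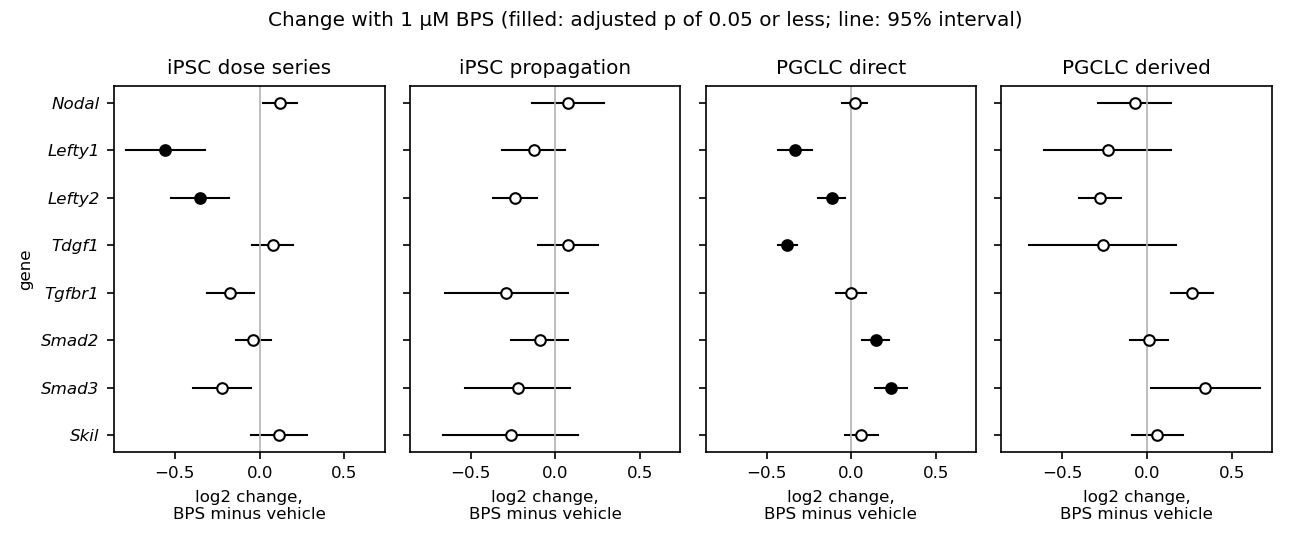
Log2 change (horizontal axes, BPS minus vehicle) of each of the 8 genes with 1 µM BPS in the dose-series iPSCs, propagation iPSCs, directly exposed PGCLCs and derived PGCLCs, with lines for 95% intervals and filled points for adjusted p of 0.05 or less. Lefty1 and Lefty2 lie below 0 in all 4 panels. Filled points are found only in the dose-series iPSCs (Lefty1, Lefty2) and directly exposed PGCLCs (Lefty1, Lefty2, Tdgf1, Smad2, Smad3).

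In Sertoli and granulosa cells 1 µM BPS called 0 members with limma or limma-voom. Of all genes 3.76% were called higher and 1.48% lower in Sertoli cells (15648 tested), and 1.95% higher and 0.656% lower in granulosa cells (15712 tested). Nodal, Lefty2 and Tdgf1 did not pass the filter on low values in Sertoli cells, nor Nodal and Lefty2 in granulosa cells, which left 5 and 6 members tested. Tdgf1 passed that filter in granulosa cells through its BPS libraries alone, so its values there are given as a description, without a test. Among the others an unadjusted p under 0.05 was found for Skil in granulosa cells and for none in Sertoli cells. Tgfbr1 averaged 139 CPM with BPS and 142 CPM with vehicle in Sertoli cells (95% interval of the log2 change -0.11 to 0.03), and 133 CPM and 139 CPM in granulosa cells (interval -0.13 to 0.01). Smad3 averaged 130 CPM with BPS and 127 CPM with vehicle in Sertoli cells (interval -0.04 to 0.10), and 96.6 CPM and 95.8 CPM in granulosa cells (interval -0.06 to 0.09). The shallowest of these libraries held 2852 Smad3 reads.

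The co-receptor gene Tdgf1 had 20, 20 and 27 reads in BPS granulosa libraries, against 15, 12 and 11 reads in vehicle granulosa libraries. Every BPS library was above every vehicle library, at 0.669 CPM against 0.395 CPM on average, but the gene was in the fit because it was high with BPS, and nothing is read from its order. Part of the Tdgf1 sequence is shared with its pseudogene. Skil had 131, 129 and 125 CPM in BPS granulosa libraries, against 134, 134 and 135 CPM with vehicle (log2 change -0.07, adjusted p = 0.254). Of 26 other pathway genes tested in each somatic cell type, Inhbb, which encodes an activin and inhibin subunit, was called lower in both, at 91.9 CPM with BPS and 105 CPM with vehicle in Sertoli cells (limma adjusted p = 0.0283) and 73.2 CPM and 93.1 CPM in granulosa cells (adjusted p = 6.76e-05). Drap1, a repressor of FOXH1 activity, was called higher in Sertoli cells at 179 CPM with BPS and 158 CPM with vehicle (adjusted p = 0.0108). Pmepa1, a feedback inhibitor of SMAD signaling, was called higher in granulosa cells at 39.4 CPM and 34.9 CPM (adjusted p = 0.0291).

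The propagation experiment asked whether changes in exposed iPSCs persist in the PGCLCs derived from them. No member was called in the iPSCs or in the derived PGCLCs, where 0.0128% of 15572 genes and 0% of 16268 genes were called in either direction. The study itself, with edgeR on counts, reported differentially expressed genes in both, and named Lefty2 and Tgfbr1 among those shared between them. Its test differs from the limma test used here. At an unadjusted p under 0.05, limma gave 1744 genes in the iPSCs and 2578 in the derived PGCLCs, with limma-voom also calling 0 genes in both. Lefty2 had 405, 404 and 385 CPM in BPS iPSCs, against 469, 469 and 469 CPM in vehicle iPSCs. All BPS libraries were lower by more than the spread within either group (log2 change -0.24 ± 0.06), but the difference did not pass the correction (limma unadjusted p = 0.00341, adjusted p = 0.320). Lefty1 had 34.1, 39.0 and 34.1 CPM in BPS iPSCs and 37.3, 39.3 and 40.3 CPM in vehicle iPSCs, which overlap.

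The replicate 2 library of BPS iPSCs was the extreme one for several members. Tgfbr1 had 44.8, 30.0 and 45.5 CPM in BPS iPSCs and 47.5, 49.3 and 47.8 CPM in vehicle iPSCs, and Skil had 30.3, 18.95 and 29.1 CPM in BPS iPSCs and 31.0, 30.4 and 30.8 CPM in vehicle iPSCs. Smad3 was lowest in the same library, at 22.5 CPM, and Nodal highest, at 110.5 CPM. Without this library 2 members were called, Lefty2 (log2 change -0.25, limma adjusted p = 3.43e-05) and Lefty1 (log2 change -0.19, adjusted p = 0.0189). In that fit 1484 of all genes were called, and the fit of all 6 libraries had tested 15572 genes. Leaving out any other library called neither Lefty2 nor Lefty1, with adjusted p values of 0.339 or more. The members' median log2 change over all 6 libraries was -0.18, against 0.00 for all genes.

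In derived PGCLCs, Lefty2 had 206, 209 and 232 CPM in the BPS lineage, against 261, 255 and 267 CPM in the vehicle lineage. Tgfbr1 had 63.9, 66.4 and 60.7 CPM in the BPS lineage, against 51.2, 54.8 and 52.8 CPM in the vehicle lineage. For both genes the groups did not overlap. Neither difference passed the correction, with log2 changes of -0.28 ± 0.05 (limma unadjusted p = 0.000815, adjusted p = 0.194) for Lefty2 and +0.26 ± 0.05 (unadjusted p = 0.00127, adjusted p = 0.195) for Tgfbr1. Smad3 had 74.1, 74.8 and 58.9 CPM in the BPS lineage and 48.5, 66.7 and 49.4 CPM in the vehicle lineage (adjusted p = 0.299). Tdgf1 had 218, 223 and 302 CPM in the BPS lineage and 351, 219 and 329 CPM in the vehicle lineage, with replicate 2 of the vehicle lineage among the low values. Lefty1 averaged 49.5 CPM in the BPS lineage and 58.6 CPM in the vehicle lineage, with overlapping libraries. The members' median log2 change was -0.03, against 0.00 for all genes.

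Marker sums also differed between these derived cultures without a called gene. The naive pluripotency genes summed to 1452 to 2241 CPM in the BPS lineage, against 2052 to 2679 CPM in the vehicle lineage, with 0 of 7 called. The germ cell genes summed to 401 to 504 CPM in the BPS lineage, against 469 to 656 CPM in the vehicle lineage, and the fibroblast genes to 310 to 479 CPM against 295 to 420 CPM. Their part in the values of Lefty2 and Tgfbr1 was not tested. Among other pathway genes 0 of 30 tested in the iPSCs and 0 of 33 in the derived PGCLCs were called.

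Lefty1 and Lefty2 were lower on average with 1 µM BPS in all 4 iPSC and PGCLC settings. Both were called only in dose-series iPSCs and directly exposed PGCLCs, and both Lefty2 calls were lost on leaving out some single libraries. Whether the responses differ was tested with interaction terms. No member was called in any of the 3 interactions with limma, in which 0%, 0.0058% and 1.97% of all genes were called for propagation against dose-series iPSCs, derived PGCLCs against propagation iPSCs, and derived against directly exposed PGCLCs. An unadjusted p under 0.05 was found for Lefty1 in the first, Tgfbr1 and Smad3 in the second, and Lefty2, Tgfbr1 and Smad2 in the last, and limma-voom called 0 members as well. Lefty1 had a smaller decrease in propagation than in dose-series iPSCs (difference +0.43 ± 0.12, limma unadjusted p = 0.00316, adjusted p = 0.877). Lefty2 responses in the same pair differed by 0.11, with a 95% interval of -0.17 to 0.40. Tgfbr1 responses differed by +0.27 ± 0.07 between derived and directly exposed PGCLCs (adjusted p = 0.0689), and the difference was called without replicate 2 of the derived vehicle PGCLCs (adjusted p = 0.0344) or replicate 3 of the derived BPS PGCLCs (adjusted p = 0.0420). Tdgf1 responses in that pair differed by 0.11 (interval -0.33 to 0.56), so the called decrease in directly exposed PGCLCs was not shown to be absent in derived ones.

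**Figure D4:**
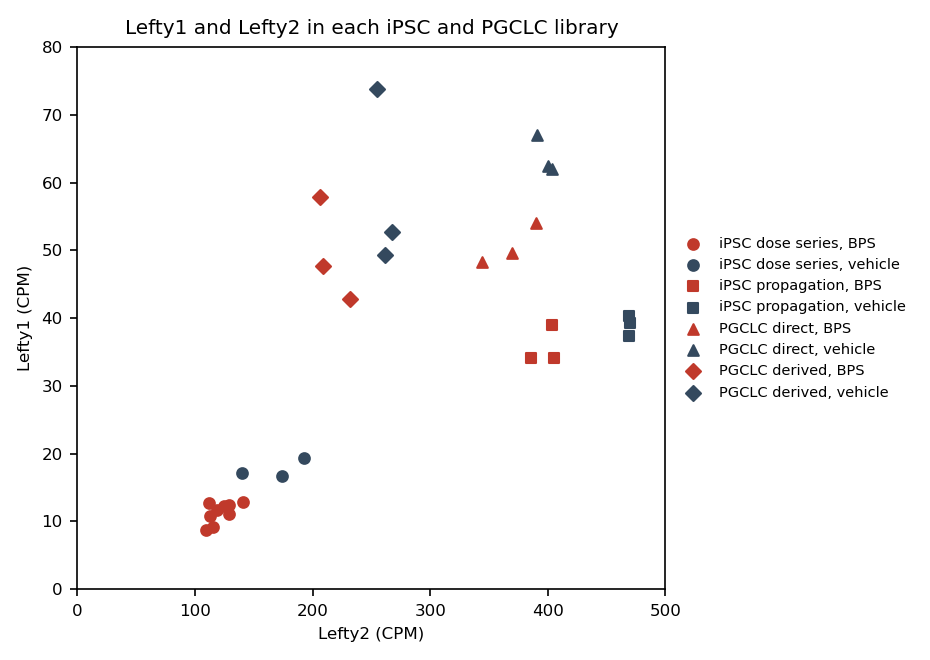
Lefty1 CPM (vertical axis) against Lefty2 CPM (horizontal axis), both linear, in each of the 30 iPSC and PGCLC libraries. Colour gives BPS (all doses alike) or vehicle. Markers give dose-series iPSCs, propagation iPSCs, PGCLCs of the direct experiment and derived PGCLCs. Dose-series iPSCs sit nearest the origin, vehicle propagation iPSCs farthest along the Lefty2 axis, and PGCLCs highest on the Lefty1 axis.

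Vehicle groups were compared in a fit of all 18 vehicle libraries to describe the members without exposure. Derived PGCLCs and propagation iPSCs belong to the same experiment. In the other comparisons of cell types the groups come from separate experiments, so cell type and experiment cannot be told apart. In this fit the spread of Nodal, Lefty2 and Tdgf1 also takes in the somatic libraries with a few reads, which widens their intervals between iPSCs and PGCLCs. Skil was the member that differed most between PGCLCs and iPSCs among those called in both inductions. It had 120, 128 and 117 CPM in derived PGCLCs, against 31.0, 30.4 and 30.8 CPM in propagation iPSCs (log2 difference +1.98 ± 0.04, limma adjusted p = 1.09e-18). It had 125, 127 and 123 CPM in vehicle PGCLCs of the direct experiment, against 31.6, 28.8 and 30.1 CPM in dose-series iPSCs (+2.05 ± 0.04, adjusted p = 7.95e-19).

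Smad3 was also higher in PGCLCs, at 54.9 CPM in derived PGCLCs and 32.2 CPM in propagation iPSCs (log2 difference +0.75 ± 0.08), and at 51.6 CPM in vehicle PGCLCs of the direct experiment and 33.2 CPM in dose-series iPSCs (+0.64 ± 0.08). Lefty1 was higher in both inductions, at 58.6 CPM and 39.0 CPM (+0.57 ± 0.15, limma adjusted p = 0.00192) and at 63.8 CPM and 17.7 CPM (+1.85 ± 0.15, adjusted p = 1.25e-09). Lefty2 went opposite ways. It was lower in derived PGCLCs than in propagation iPSCs, at 261 CPM and 469 CPM (-0.85 ± 0.35, adjusted p = 0.0368), and higher in the PGCLCs of the direct experiment than in dose-series iPSCs, at 398 CPM and 169 CPM (+1.25 ± 0.35, adjusted p = 0.00345). The first of these calls was lost on leaving out any of its 6 libraries (adjusted p up to 0.0727), and its adjusted p was 7.31e-08 when only the 6 libraries were fitted. Smad2 likewise was +0.18 in the first and -0.27 in the second, both called.

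For derived PGCLCs against iPSCs 5 members were called higher and 1 lower, where 35.9% and 37.4% of 18847 genes were called. For PGCLCs of the direct experiment against iPSCs 4 were called higher and 1 lower, where 37.7% and 37.3% of all genes were called. With only the 6 libraries of each comparison fitted, Nodal and Tdgf1 were called too, lower in derived PGCLCs (adjusted p = 0.0293 and 0.0319) and higher in PGCLCs of the direct experiment (adjusted p = 0.005004 and 6.9e-05), with changes of at most 0.41 on the log2 scale. Of 34 other pathway genes tested, 22 were called higher and 7 lower in derived PGCLCs, and 21 and 8 in PGCLCs of the direct experiment. The inhibitory SMAD gene Smad7 averaged 165 CPM in derived PGCLCs, against 63.7 CPM in propagation iPSCs, and the ligand Tgfb1 averaged 77.2 CPM against 23.6 CPM. Tgfb2 averaged 31.3 CPM against 0.893 CPM, and Pcsk6 fell to 48.6 CPM, against 131 CPM in the iPSCs. In the PGCLCs of the direct experiment the co-repressor gene Ski, a relative of Skil, averaged 196 CPM, against 105 CPM in dose-series iPSCs. There Smad7 averaged 165 CPM against 63.2 CPM, Tgfb1 71.9 CPM against 15.6 CPM, and Tgfb2 18.2 CPM against 1.12 CPM.

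The vehicle iPSC cultures that served as baselines also differed in Lefty2. The part of this gap in the opposite directions was not tested. Vehicle propagation iPSCs had 469, 469 and 469 CPM of Lefty2, against 193, 174 and 140 CPM in vehicle dose-series iPSCs, a log2 difference of +1.49 ± 0.35 (limma adjusted p = 0.00342) that ranked 174 of 18847 genes by size. Lefty1 had 37.3, 39.3 and 40.3 CPM in propagation iPSCs, against 19.4, 16.7 and 17.1 CPM in dose-series iPSCs (+1.136 ± 0.15, adjusted p = 1.32e-05). Both were vehicle cultures of the same line, and the gap between them was wider than any BPS change of these genes. The other members differed little, with Tgfbr1 lower at 48.2 CPM and 52.99 CPM (-0.14 ± 0.04, adjusted p = 0.0155, lost without propagation replicate 1 at 0.0577) and Nodal at 92.4 CPM and 82.5 CPM, not called here but called with the 6 libraries alone (adjusted p = 0.000479). In all 2 members were called higher and 1 lower, against 15.8% and 12.3% of all genes. Among 34 other pathway genes 8 were called higher and 4 lower. Follistatin (Fst) averaged 16.8 CPM in propagation and 44.5 CPM in dose-series iPSCs (-1.40 ± 0.09, adjusted p = 3.95e-09), and Tgfb1 averaged 23.6 CPM and 15.6 CPM (adjusted p = 8.10e-07). The co-receptor gene Tgfbr3 was lower, at 1.38 CPM and 3.11 CPM, and Ski higher, at 124 CPM and 105 CPM.

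The 2 vehicle PGCLC inductions differed in 2 members. Smad2 had 81.8, 87.0 and 85.6 CPM in derived PGCLCs, against 66.3, 66.9 and 63.99 CPM in PGCLCs of the direct experiment (+0.37 ± 0.03, limma adjusted p = 6.83e-08). Tdgf1 had 351, 219 and 329 CPM, against 439, 448 and 444 CPM (-0.60 ± 0.20, adjusted p = 0.0242), a call that was lost without the low derived replicate 2 (adjusted p = 0.142) and without any of the 3 libraries of the direct experiment (adjusted p = 0.0517 to 0.0591). Lefty2 had 261, 255 and 267 CPM, against 391, 403 and 401 CPM, which was not called in the 18-library fit (adjusted p = 0.177) and was called with the 6 libraries alone (adjusted p = 1.3e-05). So 1 member was called higher and 1 lower, against 22.7% and 19.9% of all genes. Of 34 other pathway genes 8 were called higher and 9 lower, among them Pcsk6, lower at 48.6 CPM in derived PGCLCs and 91.3 CPM in PGCLCs of the direct experiment. Fst was lower at 8.496 CPM and 18.9 CPM, and the co-repressor gene Tgif2 higher at 143 CPM and 91.4 CPM. The fibroblast genes summed to 295 to 420 CPM in derived vehicle PGCLCs, against 93.1 to 98.8 CPM in vehicle PGCLCs of the direct experiment, and their part in these differences was not tested.

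Against vehicle dose-series iPSCs all 8 members were called in both somatic cell types, 4 higher and 4 lower in each. Of all genes 43.7% were called higher and 45.4% lower in Sertoli cells, and 43% and 45.4% in granulosa cells. Nodal, Lefty2, Tdgf1 and Lefty1 were the lower ones. Of these, Nodal, Lefty2 and Tdgf1 passed the filter on low values through iPSC and PGCLC libraries alone. Their lower calls are thus a description of where reads were found and not a test. Nodal had 2 reads in the 3 Sertoli and 0 in the 3 granulosa libraries, against 2223 to 2574 in each iPSC library. Tgfbr1 was higher at 142 CPM in Sertoli cells, against 52.99 CPM in iPSCs (+1.43 ± 0.04), and at 139 CPM in granulosa cells (+1.39 ± 0.04). Smad3 was higher at 127 CPM in Sertoli cells, against 33.2 CPM in iPSCs (+1.94 ± 0.08), and at 95.8 CPM in granulosa cells (+1.53 ± 0.08). Skil was higher at 120 CPM in Sertoli cells, against 30.2 CPM in iPSCs (+1.99 ± 0.04), and at 134 CPM in granulosa cells (+2.16 ± 0.04), a level close to that of PGCLCs. Smad2 moved least, at 84.6 CPM in Sertoli cells, against 79.4 CPM in iPSCs (+0.09 ± 0.03, adjusted p = 0.0119). That direction flipped to -0.04 with upper quartile scaling (adjusted p = 0.192), under which the median of all genes shifted by -0.13.

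Sertoli cells differed from granulosa cells in Smad3, Skil and Smad2 among the members with more than a trace of reads in both. Smad3 had 131, 125 and 126 CPM in Sertoli cells, against 91.0, 98.8 and 97.4 CPM in granulosa cells (+0.41 ± 0.08, limma adjusted p = 0.000231). Skil had 118, 120 and 121 CPM in Sertoli cells, against 134, 134 and 135 CPM in granulosa cells (-0.17 ± 0.04, adjusted p = 0.000445), and Smad2 was lower as well (-0.10 ± 0.03, adjusted p = 0.0120), a call lost with median ratio scaling (-0.07, adjusted p = 0.0564). The fit called 3 more members on few reads. Lefty1 was called higher on 62 reads in all 3 Sertoli libraries, against 44 in the granulosa libraries, Nodal higher on 2 reads against 0, and Tdgf1 lower on 1 read against 38. Nodal and Tdgf1 passed the filter on low values through iPSC and PGCLC libraries alone, Nodal's libraries overlapped between the cell types, and its call was lost with a pseudocount of 1 CPM (+0.04, adjusted p = 0.636). With limma-voom on the recovered reads all 3 of these calls were lost, and Smad2, Smad3 and Skil remained called. The counts of 3 higher and 3 lower stand against 33.7% and 35.9% of all genes. Tgfbr1 did not differ beyond its spread, at 142 CPM and 139 CPM (95% interval -0.05 to 0.12). Of 34 other pathway genes, 18 were called higher and 15 lower in Sertoli cells than in iPSCs, 18 and 14 in granulosa cells than in iPSCs, and 13 and 12 in Sertoli than in granulosa cells. Fst averaged 5.48 CPM in Sertoli and 72.97 CPM in granulosa cells. The receptor gene Acvr2b averaged 4.88 CPM in Sertoli and 15.2 CPM in granulosa cells, against 74.2 CPM in iPSCs. Furin, which cleaves TGF-beta family precursors, averaged 254 CPM in Sertoli cells, against 17.6 CPM in iPSCs.

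**Figure D5:**
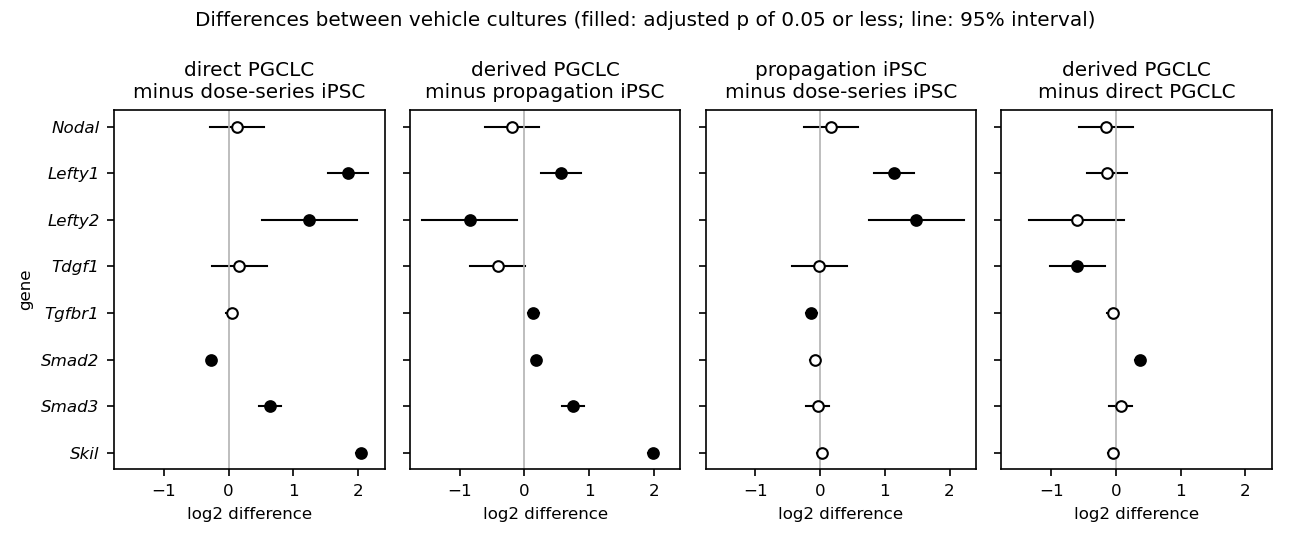
Log2 differences of the 8 genes between vehicle groups (horizontal axes, first-named group minus second), with lines for 95% intervals and filled points for adjusted p of 0.05 or less. Skil lies close to +2 in both comparisons of PGCLCs with iPSCs, Lefty2 lies on opposite sides of 0 in those panels, and Lefty1 and Lefty2 lead the comparison of the vehicle iPSC cultures.

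The ranks of the Lefty1 group means separated somatic cells, dose-series iPSCs, propagation iPSCs and PGCLCs. Those of Lefty2 did not, with BPS propagation iPSCs and vehicle PGCLCs of the direct experiment both at 398 CPM. Lefty1 means were lowest in somatic cells, then 10.2 to 17.7 CPM in the 4 dose-series iPSC groups, 35.7 and 39.0 CPM in BPS and vehicle propagation iPSCs, and 49.5 to 63.8 CPM in the 4 PGCLC groups. Within the PGCLC groups, derived BPS (49.5 ± 7.63 CPM), direct BPS (50.7 ± 3.05 CPM) and derived vehicle (58.6 ± 13.3 CPM; SD, n = 3 each) do not differ beyond their spread. Nodal means kept to a narrow band of 76.7 to 97.7 CPM over the 10 iPSC and PGCLC groups, and neighbours in that order differed by less than the larger of their SDs, except vehicle and 50 µM dose-series iPSCs at 82.5 ± 3.19 CPM and 88.0 ± 3.00 CPM.

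Genes with patterns most like those of the members were listed by Pearson correlation of the 14 group means of log2 CPM, among 13944 genes. The nearest to Nodal were Igf2bp1 and Alpl (r = 0.999 each) and Prdm14 (0.999), to Lefty1 Thoc3, Pms2 (0.993 each) and Ncapd2 (0.991), to Lefty2 Gng3 and Pola2 (0.998 each) and Hmgb2 (0.997), and to Tdgf1 B3gnt7, Aqp3 and Nelfcd (0.998 each). These values mostly record the gap between the 4 somatic and the other groups. Over the 10 iPSC and PGCLC group means alone, r was 0.10 for Igf2bp1 with Nodal and -0.03 for B3gnt7 with Tdgf1, but 0.95 for Thoc3 with Lefty1 and 0.96 for Pola2 with Lefty2. Lefty1 and Lefty2 correlated at 0.85 over these 10 groups, Lefty1 and Nodal at -0.20, and Nodal and Tdgf1 at 0.77. Groups share experiments, and Lefty1 and Lefty2 may share reads.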

How the data were processed

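RNA was measured in 42 libraries, 3 in each of 14 groups. Per the study's methods the authors aligned reads to mm10 and counted them with Rsubread, and scaled them with edgeR. The deposited values are log2 of CPM scaled by the trimmed mean of M-values plus 0.0313 CPM, so a gene with 0 reads stands at -5.00. CPM and whole reads were recovered from the log2 values (100% whole within 0.05 read, up to 1000 reads). Raw counts were not the deposited unit, so limma 3.58.1 with a mean-variance trend (R 4.3.3) was the main test, two-sided, on genes with at least 0.5 CPM in at least 3 libraries of the fit. The dose series was fitted on 12 libraries, vehicle groups on 18, interactions on 12 and the rest on 6. Replicate pairs differed by more than sampling noise, with a mean chi-square of at least 2.02.

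All 8 members are named everywhere, and of 37 other listed pathway genes (35 in the table, 2 not analysed here) up to 4 called per comparison by the smallest adjusted p. Genes at or near 0 reads in a group are given as reads, so some of these 4 are counted but not named. The members and lists were chosen with earlier results of these data known. Alternatives were a pseudocount of 1 CPM, no filter, a filter of 5 CPM, median ratio and upper quartile scaling, a replicate block, limma-voom, 6-library fits and leaving out each library. Exonic sequence and positions are from GENCODE vM21, and promoters from RefSeq. No sequence of chromosome 18 is printed.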

Additional observations from a re-analysis of the deposited data

Results flagged for a closer look

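Between vehicle PGCLCs and iPSCs, 4 members had differences of opposite sign in the 2 inductions, in every library of each. The log2 differences in derived and direct-experiment PGCLCs were -0.85 and +1.25 for Lefty2, -0.20 and +0.13 for Nodal, -0.41 and +0.17 for Tdgf1, and +0.18 and -0.27 for Smad2. Lefty2 and Smad2 were called in both, while Nodal (limma adjusted p = 0.380 and 0.575) and Tdgf1 (adjusted p = 0.0766 and 0.464) were called in neither in the fit of 18 vehicle libraries. The difference between the inductions was not tested, and each has its own iPSC culture as baseline. Lefty2 values differed between the vehicle iPSC cultures and between the vehicle PGCLCs, as given above. The part of either gap in the opposite signs was not tested.

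With 1 µM BPS, Tdgf1 was lower in every directly exposed PGCLC library (-0.38 on the log2 scale). In granulosa cells the log2 change of Tdgf1 was +0.69, on 67 reads with BPS against 38 with vehicle. The gene was in the granulosa fit only through its BPS libraries. The granulosa value is thus a description without a test, and no opposite response is read from it. Tgfbr1 was lower in every dose-series iPSC library (-0.17, not called) and higher in every derived PGCLC library (+0.26, not called). No difference between these settings was tested. In iPSCs of the propagation experiment Tgfbr1 was also lower in every BPS library (-0.29, not called). Its response in derived PGCLCs against that in those iPSCs was tested and not called (difference +0.55, limma adjusted p = 0.378).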

How the results depend on the processing

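Of 2131 recomputed values of the members, 2017 kept direction and side of the threshold, 26 lost and 33 gained a call, 54 uncalled ones changed sign and 1 called one reversed: Smad2 in Sertoli cells against iPSCs, -0.044 with upper quartile scaling. Members called at 1 µM in the dose series were 2, but 1 in the fit of the 6 libraries (all genes 1397 and 723), and 1 to 3 on leaving out a library. On leaving out a library, members called ranged from 3 to 3 at 50 µM, 3 to 4 at 100 µM, 3 to 6 in directly exposed PGCLCs and 0 to 2 in propagation iPSCs. They ranged from 5 to 6 for derived PGCLCs against iPSCs, 6 to 7 for Sertoli against granulosa cells, 2 to 3 for propagation against dose-series iPSCs, 1 to 2 for derived against direct PGCLCs and 0 to 1 for their interaction. Sertoli against granulosa cells gave 6 members, and 3 with limma-voom. Derived against direct PGCLCs gave 2, and 4 with a pseudocount of 1 CPM or limma-voom. The interaction of these PGCLCs gave 0, and 1 (Tgfbr1) with upper quartile scaling. For 100 against 1 µM, all genes called were 72, but 40 without a filter, 113 with limma-voom and 5 in the fit of 6 libraries. In propagation iPSCs they were 2, but 0 with a filter of 5 CPM or limma-voom. The cause of these differences was not tested.

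With upper quartile scaling the share of calls that were higher, over all genes, was 75.9% against 65.6% in the main fit at 1 µM, 60.2% against 49.6% at 50 µM, 43.7% against 71.7% in Sertoli cells, 49.4% against 74.8% in granulosa cells (55.9% with median ratio scaling), 41.1% against 57.7% in directly exposed PGCLCs and 71.3% against 56.8% in the interaction of the PGCLC responses.

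A replicate block changed no count of members called, for example 2 at 1 µM, 5 in directly exposed PGCLCs and 0 in propagation iPSCs, while over all genes calls in Sertoli cells were 1298 with the block and 820 without it, and in propagation iPSCs 0 and 2. The numbers pair no samples by label, and in no comparison were all pairs of same-numbered libraries correlated above 0.1, nor did every library correlate best with its own number. Depth limits Nodal, Lefty2 and Tdgf1 in somatic cells, where a library held 0 to 27 reads of them.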
